A study of Mus musculus with 12 samples.

Results

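The genes of the kynurenine route were measured in cultured type II alveolar epithelial (AT2) cells, the surfactant-producing cells of the mouse lung. The set holds 10 genes chosen by symbol, namely 8 enzymes (Ido1, Ido2, Tdo2, Afmid, Kmo, Kynu, Haao and Aadat) and 2 carrier subunits (Slc7a5 and Slc3a2), and all 10 were found among the 55450 genes of the count table. Counts were at hand for 12 RNA-seq libraries in 4 groups of 3. AT2 cells from AhRfl/fl mice, whose floxed AhR alleles are intact, and from Sftpc-Cre;AhRfl/fl mice, in which Cre under the AT2 promoter Sftpc deletes the floxed AhR, were treated with PBS or with cockroach extract (CRE, 50 µg/ml) for 24 h. Mice of both lines carried the floxed alleles on a C57BL/6 background and were 6 to 8 weeks old. AT2 cells were enriched by removing cells with blood and leukocyte surface markers and by panning on IgG, and were then plated on collagen I. The labels do not say whether the 3 libraries of a group came from separate mice or cultures, so each p-value measures the spread between these libraries, which may be technical.

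The aryl hydrocarbon receptor (AhR) is a transcription factor that is switched on when it binds a ligand, and kynurenine, made from tryptophan, is 1 of its ligands. IDO1, IDO2 and TDO2 open the indole ring of tryptophan, and the formamidase AFMID turns the product into kynurenine. KMO, KYNU and HAAO then carry kynurenine towards quinolinate and NAD, whereas the aminotransferase AADAT takes it to kynurenate, another AhR ligand. LAT1 (Slc7a5) and its heavy chain CD98 (Slc3a2) form the carrier that moves tryptophan and kynurenine across the plasma membrane. IDO1 is known as an enzyme that interferon gamma induces in dendritic cells, macrophages and epithelia, and TDO2 as the tryptophan enzyme of the liver. The comparisons ask whether mRNA of this route differs with CRE, with loss of AhR, or with both.

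In these cells the 2 carrier subunits were abundant, the 8 enzymes were near or below 1 FPKM (fragments per kilobase of transcript, scaled to library size, which is a level per gene length), and no member passed the test in any comparison. Of the 10 members, 9 had enough counts to be tested and Aadat had none. The tests were made with edgeR's quasi-likelihood test at an adjusted p of 0.05 over 20612 genes. Total counts were 68878065 to 80935797 per library, so a gene with 0 counts could still hold up to 3 counts, or 0.0371 to 0.0436 CPM (counts scaled to library size). Intervals and floors cover counting error or the spread between libraries only.

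Slc3a2, the heavy chain that carries LAT1 to the cell surface, was the most abundant member, with a median of 171.4 FPKM and a range of 133.4 to 190.3 FPKM over the 12 libraries. Slc7a5, the light chain that forms the pore, had a median of 23.3 FPKM and ranged from 21.1 to 27.1 FPKM. Afmid was the highest enzyme by its median of 0.336 FPKM, with a lowest value of 0.115 FPKM and a highest value of 0.901 FPKM. The order Slc3a2, Slc7a5, Afmid held in 12 of 12 libraries, and the ranges of these 3 genes did not overlap.

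The enzymes could not be put in a firm order, since the range of each overlapped that of its neighbour, and Afmid itself lay above Kmo in 8 of 12 libraries. Their median levels were 0.148 FPKM for Kmo, 0.113 FPKM for Kynu, 0.0922 FPKM for Ido2, 0.0754 FPKM for Haao, 0.0458 FPKM for Ido1 and 0.0350 FPKM for Tdo2. All 8 enzymes together summed to between 0.442 and 2.00 FPKM per library, or 166 to 737 counts. Aadat was listed at 0 in 12 of 12 libraries. Its route to kynurenate has other aminotransferases, and of these Kyat1 had a mean of 2.50 FPKM (range 1.95 to 3.14), Kyat3 a mean of 0.405 FPKM (range 0.280 to 0.488), and Got2, the abundant mitochondrial aspartate aminotransferase, a mean of 37.6 FPKM (range 35.3 to 42.3). Kyat1 and Kyat3 were picked for mention after their values were seen.

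**Figure D1:**
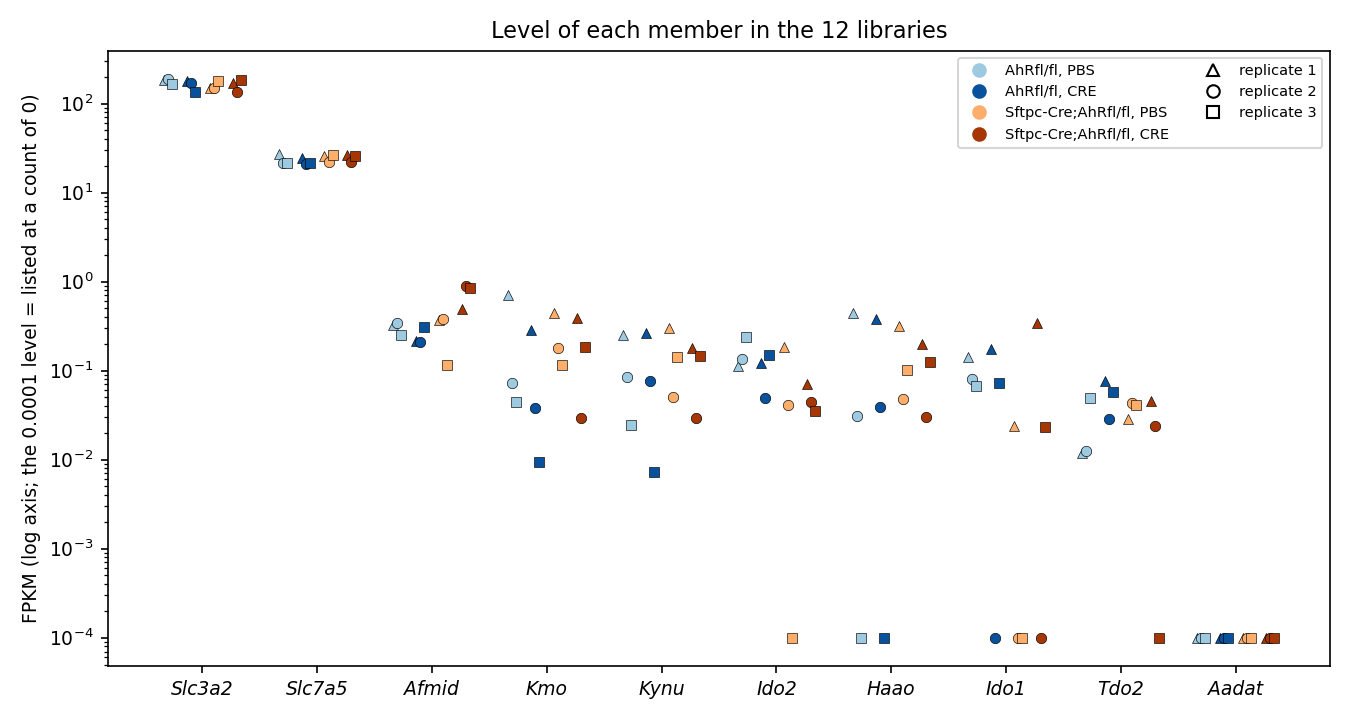
FPKM on a log axis of the 10 members, ordered by their median, with each point 1 library, its colour the group and its shape the replicate number. Slc3a2 (133.4 to 190.3 FPKM) and Slc7a5 (21.1 to 27.1 FPKM) stand above every enzyme, and the lowest row of points marks libraries with a count of 0, among them all 12 for Aadat.

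Promoter windows of 300 bases (250 before to 50 after the start, RefSeq, GRCm38.p6) were at hand for 6 of the 10 members, Tdo2, Afmid, Kmo, Aadat, Haao and Slc3a2. Windows for Ido1, Ido2, Kynu and Slc7a5 were not used here. The windows of Tdo2, Haao, Kmo and Slc3a2 lay inside the GENCODE M21 spans of these genes. Those of Kmo (chr1:175631943-175632242) and Slc3a2 (chr19:8713848-8714147) lay far past the GENCODE starts, 175620381 and 8723369. Sequence before the GENCODE starts of these genes was not searched, and positions below count from the RefSeq starts. The core to which AhR binds with its partner ARNT, GCGTG, was searched on both strands and was found in 2 of the 6 windows, those of Tdo2 and Haao, against 32.4% of all 32851 windows. Both stretches are shown because they are the only places in these windows where an AhR core lies beside a member, with the core in capitals and the strand of the gene, which is the minus strand for both. Tdo2 lies at chr3:81975906-81975934, where the core reads on the opposite strand from 194 bases before the start, and Haao at chr17:83846911-83846939, where it reads on the strand of the gene from 137 bases before the start.
Tdo2: tagagggtttggCACGCcctgctagcaaa
Haao: atccctgctccgGCGTGtgtgcaggggca
The ATF element TGATGNAA (3.97% of all windows), the gamma-activated site TTCNNNGAA (8.30%) and the interferon element GAAANNGAA (8.56%) had no match in the 6 windows. A match is a run of letters, not a shown binding site, and Tdo2 and Haao counts are given below.

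The genotype was checked before the members were compared. Of 6 AhR target genes, 6 were lower in Sftpc-Cre;AhRfl/fl cells averaged over treatments, among them Cyp1b1, the most changed, with a log2 fold change of -3.14 (SE 0.19, edgeR adjusted p = 2.4e-05). In the same average Nqo1, Tiparp and Aldh3a1 had log2 fold changes of -1.36, -1.08 and -1.53, and Tiparp had an adjusted p of 0.0508 without the 4 libraries numbered replicate 1. That test took paired CRE and PBS libraries as separate, so its p-values can be too small. With PBS alone and with CRE alone, 3 of the 6 passed each time (Cyp1b1, Nqo1 and Tiparp). Total Ahr counts were 2949 to 3503 in AhRfl/fl and 3303 to 3908 in Sftpc-Cre;AhRfl/fl cells with PBS, and a whole-gene count cannot show the loss of a floxed exon.

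AT2 markers were high in every library, with the 9 genes summing to 4414 to 9041 CPM and Sftpc alone at 3086 CPM or more. Markers of other cell types were detected too. The 3 club cell markers summed to 3976 to 8089 CPM, nearly all of it Scgb1a1. The other club markers were low, Scgb3a2 at 2.10 to 3.59 CPM and Cyp2f2 at 10.4 to 19.2 CPM. The 6 AT1 markers summed to 615.8 to 1424 CPM, lower with CRE than with PBS in 6 of 6 same-number pairs of libraries. Club, fibroblast and mesothelial sums were also lower with CRE in 6 of 6 such pairs, and macrophage and neutrophil sums were higher in 6 of 6. Which cells held this RNA was not tested. Fibroblast markers summed to 75.5 to 272.2 CPM and mesothelial markers to 82.05 to 172.9 CPM, and neither was highest in replicate 1 of every group. Macrophage, endothelial and neutrophil markers were highest in replicate 1 of every group. Macrophage markers summed to 156.7 to 213.2 CPM there and 71.8 to 162.2 CPM elsewhere. Endothelial markers summed to 61.05 to 75.9 CPM there and 33.7 to 55.45 CPM elsewhere, and neutrophil markers to 12.54 to 26.9 CPM and 2.76 to 11.92 CPM. Of the neutrophil markers Mmp8 reached 25.2 CPM, whereas Ly6g reached 0.322 CPM at most. By treatment, macrophage sums in AhRfl/fl cells were 97.7 to 194.3 CPM with PBS and 160.8 to 213.2 CPM with CRE. In Sftpc-Cre;AhRfl/fl cells they were 71.8 to 156.7 CPM with PBS and 123.0 to 176.0 CPM with CRE. The part of other cell types in the members' values was not tested. The 5 leukocyte markers (Ptprc, Cd52, Laptm5, Coro1a and Cd53) summed to 244.9 to 335.4 CPM in the 4 libraries numbered replicate 1 and to 13.6 to 77.4 CPM in the other 8. The 7 dendritic cell markers summed to 120.6 to 133.5 CPM in replicate 1 and 8.49 to 41.1 CPM elsewhere, although Xcr1, Clec9a and Cd209a were at 0 in 2, 4 and 5 libraries. Of these markers Ccr7 reached 107.6 CPM, whereas Itgax reached 26.7, Zbtb46 7.45 and Flt3 6.62 CPM at most. The 4 T and NK cell markers summed to 17.8 to 23.6 CPM in replicate 1 and 0.295 to 6.67 CPM elsewhere, with Ifng at 0 in 4 libraries. In bulk samples, fewer cells of a type and less RNA per cell cannot be told apart.

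With CRE in AhRfl/fl cells, 0 of the 9 tested members passed the test, where 0.233% of all tested genes did, and 0 met the rule of the study (limma-trend, with p under 0.05 before adjustment and a log2 fold change past 0.5 in size), which 4.11% of genes met. In Sftpc-Cre;AhRfl/fl cells CRE moved 0 of 9 past the test (0.262% of genes) and 1, Afmid, past the rule of the study (3.38%). Between genotypes, 0 of 9 passed with PBS (0.150%) and 0 with CRE (0.170%), whereas the rule of the study was met by 0 with PBS (4.10%) and by 1, Afmid, with CRE (3.42%). The interaction, which asks whether the response to CRE differed between genotypes, was passed by 0 members and by 0% of genes in edgeR. At an unadjusted p below 0.05 edgeR gave 763 genes for the interaction, or 3.70% of those tested, and DESeq2 called 23 genes at an adjusted p below 0.05. The rule of the study was met in the interaction by 2.30% of genes, Afmid among them. Averaged over genotypes, CRE moved 0 of 9 members (1.10% of genes), and averaged over treatments the genotype moved 0 of 9 (0.631%). The edgeR shares are those of the main fit, which did not pair libraries. With CRE and PBS libraries of the same number paired, edgeR called more genes for CRE, as given in the last section. The genotype test averaged over treatments took paired libraries as separate, so its p-values can be too small and its share too high.

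The share of members whose groups did not overlap was near that of all tested genes or below it, and is not a result about the members. The 3 libraries of one group lay all above or all below those of the other for 0 of 9 members with CRE in AhRfl/fl cells (16.5% of tested genes), 1 with CRE in Sftpc-Cre;AhRfl/fl cells (Afmid; 11.8%), 1 between genotypes with PBS (Ido1; 14.0%) and 1 between genotypes with CRE (Afmid; 11.0%). The median log2 fold change of the 9 members was -0.17, -0.29, -0.11 and 0.05 in these 4 comparisons in turn, and that of all tested genes was within 0.003 of 0.

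**Figure D2:**
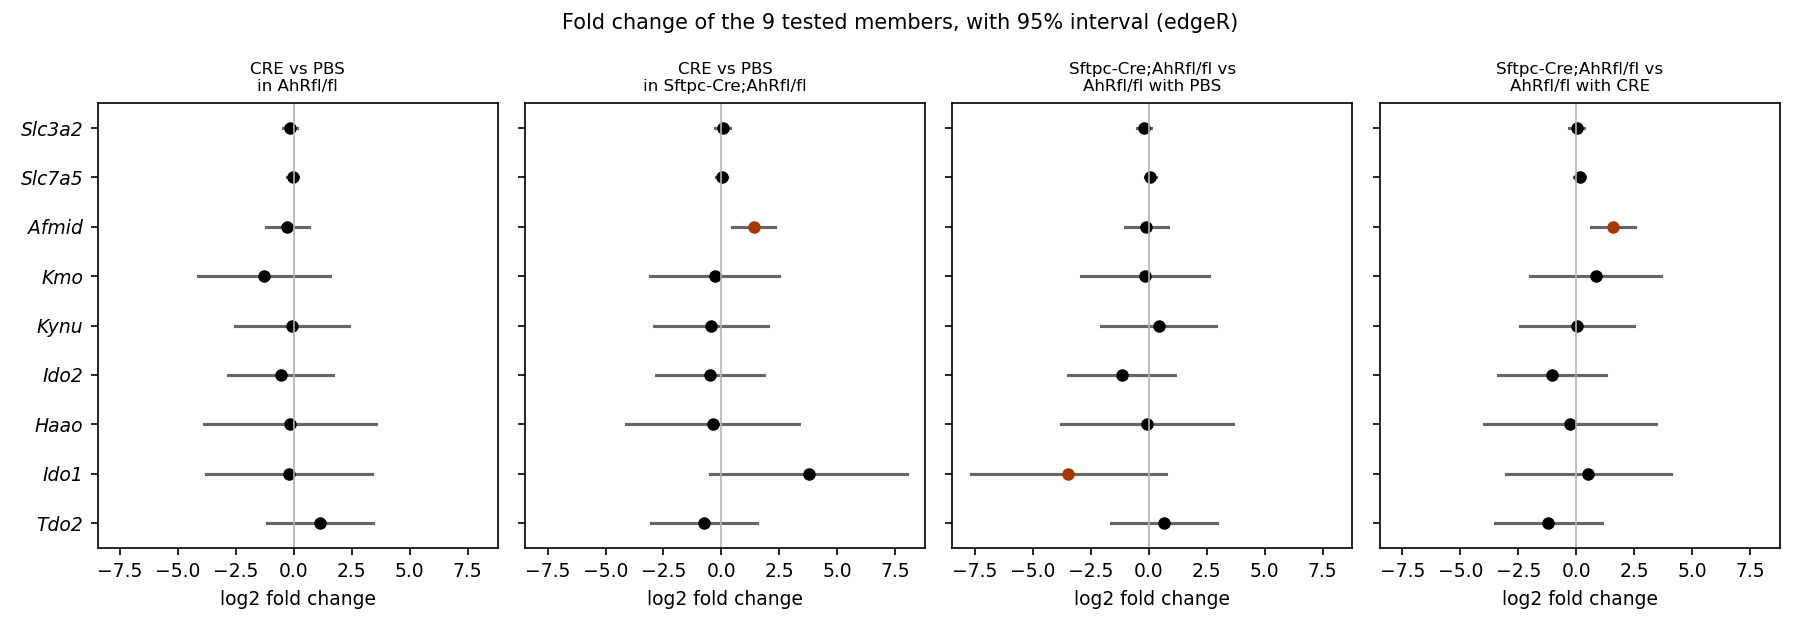
Log2 fold change (points) with its 95% interval (bars) of the 9 tested members in the 4 pairwise comparisons, from edgeR, with members in the order of their level and a coloured point where the 3 libraries of 1 group did not overlap those of the other. The intervals of Slc3a2 and Slc7a5 stay within -0.52 and 0.38, those of the low enzymes span several units, and the value of Ido1 against a group with 2 libraries at 0 depends on the prior count of the fit.

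The carrier genes give the tightest comparison. Slc7a5 had 8254, 6102 and 7024 counts in AhRfl/fl cells with PBS and 7931, 6626 and 6805 with CRE. Its counts in Sftpc-Cre;AhRfl/fl cells were 8186, 7423 and 8102 with PBS and 8435, 6692 and 8319 with CRE. These groups overlapped in every comparison, with group means of 97.1 ± 11.3, 93.0 ± 5.15, 101.4 ± 10.0 and 102.5 ± 9.67 CPM (SD, n = 3 each). The 4 pairwise log2 fold changes lay between -0.06 and 0.14, and their 95% intervals within -0.29 and 0.37, so that a rise or fall of Slc7a5 beyond 0.815 to 1.30 times lies outside those intervals.

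Slc3a2 had 53484, 51426 and 50871 counts in AhRfl/fl cells with PBS and 54694, 51204 and 39910 with CRE. Sftpc-Cre;AhRfl/fl cells had 44410, 47331 and 52563 counts with PBS and 51507, 39166 and 56592 with CRE. No group stood apart here either, and the lowest library was replicate 3 in AhRfl/fl cells with CRE and replicate 2 in Sftpc-Cre;AhRfl/fl cells with CRE. The 4 pairwise log2 fold changes of Slc3a2 lay between -0.20 and 0.06, with 95% intervals within -0.52 and 0.38. Its interaction was 0.23 on the log2 scale (interval -0.22 to 0.67), and its edgeR adjusted p-values were 0.78 or more in all 7 comparisons. The FPKM of Slc3a2 was 6.98 ± 0.892 times that of Slc7a5 (SD, n = 12, range 5.70 to 8.86), and the group means of this ratio, from 6.41 ± 0.613 to 7.76 ± 1.03 (SD, n = 3), had overlapping libraries.

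Slc3a2 was the member of highest level, and the 3 genes whose log2 CPM was most like its own over the 12 libraries were Tsc22d3 (r = 0.936), Gm15009 (r = 0.907) and Trib3 (r = 0.891). Trib3 is a target of ATF4, the transcription factor of the amino acid response, as Slc3a2 is known to be, and Tsc22d3 is a glucocorticoid-induced gene. These libraries share groups and replicate numbers, so the values of r only describe them. Among 12 genes of the amino acid response, 0 passed the edgeR test in any of the 7 comparisons, and Atf4 itself (mean 161.1 FPKM, range 138.2 to 185.5) and Asns, asparagine synthetase (mean 59.6 FPKM, range 50.9 to 73.3), were high throughout.

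The enzymes that open the tryptophan ring were scarce. Ido1 had 22, 12 and 11 counts in AhRfl/fl cells with PBS and 29, 0 and 12 with CRE. In Sftpc-Cre;AhRfl/fl cells it had 4, 0 and 0 counts with PBS and 55, 0 and 4 with CRE. Every AhRfl/fl library with PBS thus lay above every Sftpc-Cre;AhRfl/fl library with PBS, at 0.142 to 0.293 against 0 to 0.0508 CPM, but the edgeR adjusted p was 0.679 and the highest library of all was a Sftpc-Cre;AhRfl/fl library with CRE. The response of Ido1 to CRE in Sftpc-Cre;AhRfl/fl cells was 3.76 on the log2 scale (SE 1.92, adjusted p = 0.831) and 0.59 without that 1 library of 55 counts. Ido1 was highest in replicate 1 in 4 of 4 groups, as were the leukocyte markers, but the 2 did not keep the same order across groups. Replicate 1 of Sftpc-Cre;AhRfl/fl cells with PBS had 4 Ido1 counts at a leukocyte marker sum of 251.4 CPM. Replicate 3 of AhRfl/fl cells had 11 counts with PBS and 12 with CRE, at sums of 16.4 and 13.6 CPM. The part of leukocyte RNA in the Ido1 values was not tested.

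Tdo2 had 4, 4 and 17 counts in AhRfl/fl cells with PBS and 27, 10 and 19 with CRE, and 10, 16 and 15 with PBS and 16, 8 and 0 with CRE in Sftpc-Cre;AhRfl/fl cells. Ido2, the neighbour and paralog of Ido1 on chromosome 8, had 34, 38 and 77 counts in AhRfl/fl cells with PBS and 40, 16 and 47 with CRE, and 57, 14 and 0 with PBS and 23, 14 and 12 with CRE in Sftpc-Cre;AhRfl/fl cells. Both genes overlapped between groups in every pairwise comparison. Their smallest edgeR adjusted p-values over the 7 comparisons were 0.844 for Tdo2 and 0.707 for Ido2. The pairwise intervals reached from -3.50 to 3.40 for Tdo2 and from -3.47 to 1.84 for Ido2 on the log2 scale, so large changes of either gene were not detectable at these counts.

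Inducers of Ido1 were looked at through 14 genes of the interferon response. The receptor genes Ifngr1 and Ifngr2 had means of 14.5 and 25.5 FPKM, whereas Ifng did not exceed 0.119 CPM. Of the 14 genes 13 were tested, and 0 passed with CRE in either genotype or averaged over genotypes. In that average the median log2 fold change of the list was 0.160, against -0.002 for all tested genes. Nearest to passing were Cxcl10 at 0.69 (edgeR adjusted p = 0.0557) and Irf1 at 0.32 (0.0687). These values come from the fit without pairs, which called fewer genes for CRE than the paired fit. Between genotypes averaged over treatments 1 gene passed. This was Ifit3, an interferon-induced gene, which was higher in Sftpc-Cre;AhRfl/fl cells by 0.93 on the log2 scale (SE 0.17, edgeR adjusted p = 0.0409). That test took the paired CRE and PBS libraries as separate, so its p-value can be too small. Between genotypes Ifit3 did not pass with PBS alone (edgeR adjusted p = 0.229) or with CRE alone (0.492). Leaving out 1 library ended the averaged call for 10 of the 12 libraries, all but replicate 2 of both Sftpc-Cre;AhRfl/fl groups, at adjusted p-values of 0.0600 to 0.117.

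Afmid, the formamidase that releases kynurenine, was the only member with an edgeR p below 0.05 in any comparison of the main fit, which did not pair libraries. It had 97, 96 and 78 counts in AhRfl/fl cells with PBS and 70, 66 and 95 with CRE. In Sftpc-Cre;AhRfl/fl cells it had 115, 124 and 35 counts with PBS and 152, 263 and 269 with CRE. The 3 Sftpc-Cre;AhRfl/fl libraries with CRE were the 3 highest of the 12 and overlapped no other group. Their mean was 3.02 ± 0.942 CPM, against 1.15 ± 0.583 with PBS and 1.01 ± 0.229 in AhRfl/fl cells with CRE (SD, n = 3 each).

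The log2 fold change of Afmid was 1.39 (SE 0.43) for CRE in Sftpc-Cre;AhRfl/fl cells and 1.58 (SE 0.43) between genotypes with CRE, each with an edgeR adjusted p of 0.455. DESeq2 gave 1.58 between genotypes with CRE at an adjusted p of 0.0453, and over all alternatives tried for that value the adjusted p ran from 0.0453 to 0.996. In AhRfl/fl cells the response to CRE was -0.30 (SE 0.42), and the interaction was 1.69 (SE 0.60, adjusted p = 1.0). Between genotypes with PBS the difference was -0.11 (SE 0.42).

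The counts of Afmid moved against those of Gm20708, a gene model annotated on the same strand that spans it (Afmid lies at chr11:117825924-117839908 and Gm20708 at chr11:117809668-117839904, plus strand, GENCODE M21). Gm20708 had 158, 145 and 126 counts in AhRfl/fl cells with PBS and 214, 125 and 146 with CRE. Counts in Sftpc-Cre;AhRfl/fl cells were 127, 152 and 164 with PBS but 135, 15 and 6 with CRE. The 2 libraries where Afmid was highest, at 263 and 269 counts, were thus those where Gm20708 was lowest.

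Summed, the 2 genes had 255, 241 and 204 counts in AhRfl/fl cells with PBS, 284, 191 and 241 with CRE, 242, 276 and 199 in Sftpc-Cre;AhRfl/fl cells with PBS, and 287, 278 and 275 with CRE. Afmid took 94.6% and 97.8% of the sum in replicates 2 and 3 of the last group, 53.0% in replicate 1, and 17.6% to 47.5% in the other 9 libraries. With the counts summed, an alternative added after seeing the data, the log2 fold change was 0.28 for CRE in Sftpc-Cre;AhRfl/fl cells, 0.24 between genotypes with CRE and 0.32 for the interaction, at edgeR adjusted p-values of 0.948, 0.996 and 1.0. Reads in shared exons can be given to either gene, so the separate Afmid count is uncertain. Tk1, thymidine kinase, overlaps the start of Afmid on the opposite strand and had 766 to 1612 counts.

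**Figure D3:**
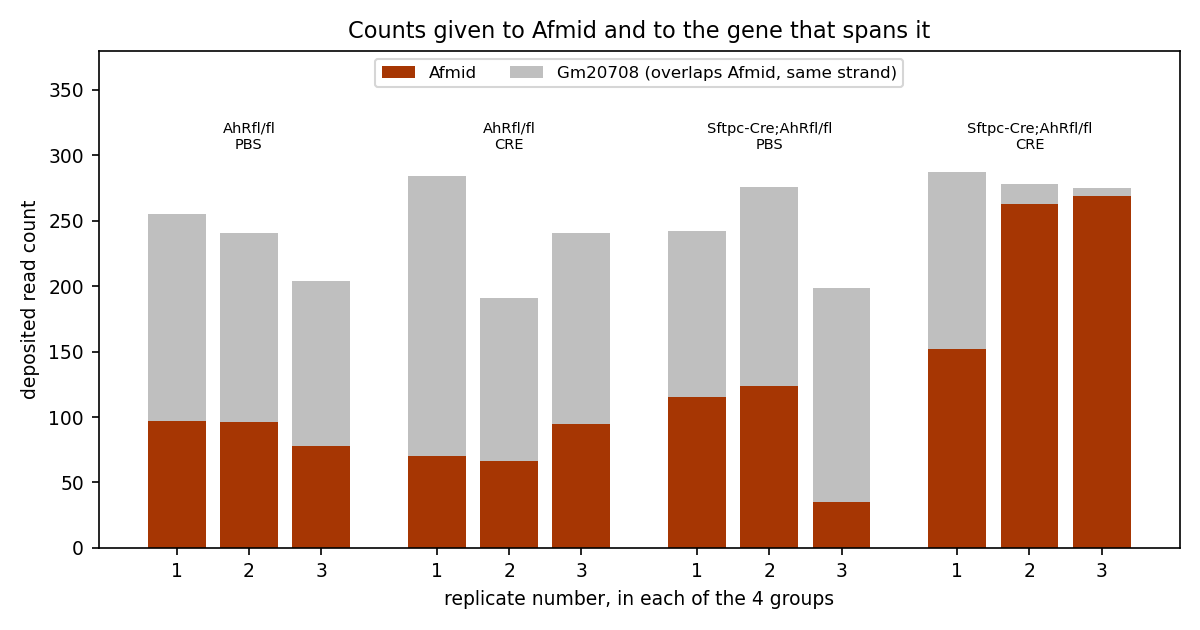
Deposited counts of Afmid (dark) stacked on those of Gm20708 (grey), the gene model that spans it on the same strand, in each library. The Afmid part grows to 263 and 269 counts in replicates 2 and 3 of Sftpc-Cre;AhRfl/fl cells with CRE, while the total stays between 191 and 287 counts in all 12 libraries.

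The enzymes that use up kynurenine stood highest in replicate 1 of each group, while replicates 2 and 3 had no fixed order. Kmo, which hydroxylates kynurenine, had 275, 27 and 19 counts in AhRfl/fl cells with PBS and 119, 17 and 4 with CRE, and 180, 78 and 46 with PBS and 156, 12 and 77 with CRE in Sftpc-Cre;AhRfl/fl cells. Kynu, which cleaves kynurenine and hydroxykynurenine, had 130, 41 and 14 counts, then 144, 40 and 4, in the AhRfl/fl groups with PBS and CRE, and 157, 29 and 76, then 95, 15 and 80, in the Sftpc-Cre;AhRfl/fl groups. Haao, which makes the precursor of quinolinate, had 175, 12 and 0 counts, then 161, 17 and 0, in AhRfl/fl cells and 125, 22 and 41, then 80, 12 and 52, in Sftpc-Cre;AhRfl/fl cells. All 3 genes were highest in replicate 1 in 4 of 4 groups, and the groups overlapped in every comparison.

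In CPM, Haao ran from 1.02 to 2.33 in the replicate 1 libraries and from 0 to 0.682 in the other 8, and Kynu from 1.21 to 1.99 against 0.0537 to 1.05. Kmo ran from 1.48 to 3.67 against 0.0537 to 1.01. Outside replicate 1, the next highest leukocyte sums were those of replicate 3 of both Sftpc-Cre;AhRfl/fl groups (77.4 and 75.6 CPM), and Kynu (76 and 80 counts) and Haao (41 and 52 counts) were next highest there as well. Both AhRfl/fl libraries numbered 3 had the lowest leukocyte sums (16.4 and 13.6 CPM) and 0 counts of Haao. Kmo departed from this order in replicate 2 of Sftpc-Cre;AhRfl/fl cells with PBS, at 78 counts with a leukocyte sum of 52.5 CPM.

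**Figure D4:**
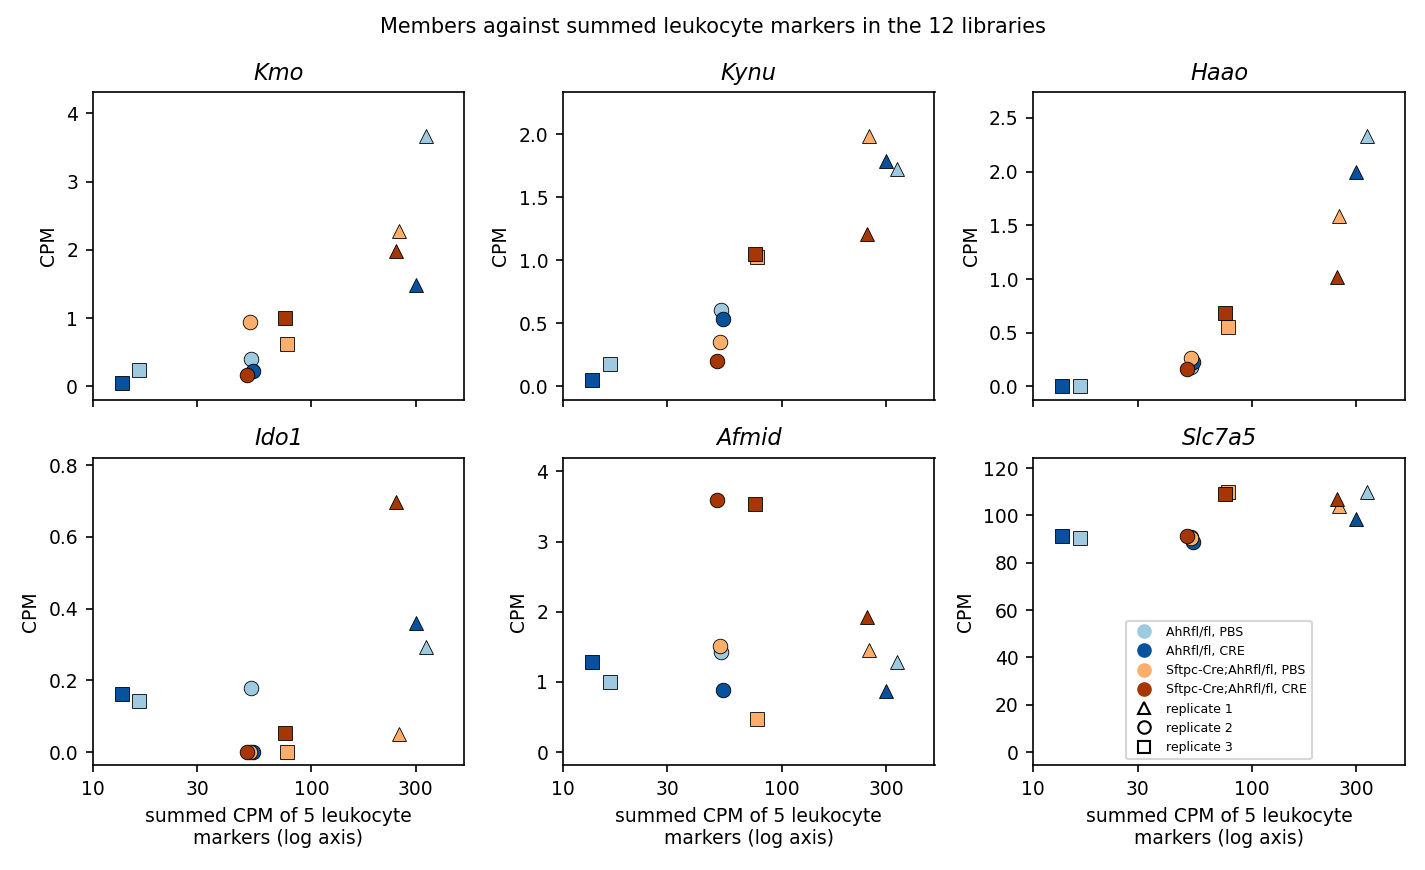
CPM of Kmo, Kynu, Haao, Ido1, Afmid and Slc7a5 (vertical axes) against the summed CPM of 5 leukocyte markers on a log axis (horizontal), with 1 point per library, colour for the group and shape for the replicate number. The triangles of replicate 1 (244.9 to 335.4 CPM of markers) stand highest for Kmo, Kynu and Haao, while Slc7a5 keeps within 88.8 to 110.1 CPM and Afmid is highest in 2 libraries with few leukocyte markers.

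The genes whose log2 CPM was most like these enzymes over the 12 libraries, named after their values were seen, were genes known from lymphocytes and other leukocytes. For Kynu they included Runx3 (r = 0.964) and Cxcr6 (r = 0.962), and for Haao Prkcq (r = 0.987), Ifi209 (r = 0.986) and Gimap3 (r = 0.986). For Kmo they were Gpr18 (r = 0.959), Gpr55 (r = 0.951) and Cyth4 (r = 0.95). Il4i1, a secreted amino acid oxidase of immune cells that also acts on tryptophan, was at 5.32 to 9.85 CPM in replicate 1 and 0.155 to 1.39 CPM in the other libraries, and it too was named after its values were seen. The part of leukocyte RNA in the values of Kmo, Kynu and Haao was not tested. Without the 4 replicate 1 libraries, an alternative added after seeing the data, 0 members passed in all 7 comparisons.

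No edgeR adjusted p of these 3 enzymes was below 0.858. Their pairwise 95% intervals were wide, from -4.12 to 3.65 for Kmo, -2.92 to 2.88 for Kynu and -4.10 to 3.65 for Haao on the log2 scale. By its GENCODE M21 start the Kmo gene overlaps Fh1, fumarate hydratase, on the opposite strand, which had 9851 to 13797 counts. The RefSeq window of Kmo lies past the end of Fh1. Whether the counting used the strand of the reads is not given in the sources used here.

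Other genes of tryptophan use were counted in the same way. Of 8 further genes of the kynurenine route, 8 were tested and 0 passed in the 7 comparisons, with Got2 and Gcdh, glutaryl-CoA dehydrogenase (mean 8.41 FPKM), the highest of them. Of 10 genes of other tryptophan routes 8 were tested and 0 passed, and the highest were Wars, the tryptophanyl-tRNA synthetase (mean 19.1 FPKM, range 16.3 to 22.7), and Maoa, monoamine oxidase A (mean 16.7 FPKM, range 14.2 to 20.6). The tryptophan hydroxylases Tph1 and Tph2, which start serotonin synthesis, had means of 0.0166 and 0.670 FPKM.

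Of 11 other carriers 10 were tested and 1 passed. Slc7a11, the cystine carrier that pairs with the same heavy chain Slc3a2, had 185.7, 140.3 and 130.4 CPM in AhRfl/fl cells with PBS and 454.6, 457.6 and 358.4 CPM with CRE. Cells from Sftpc-Cre;AhRfl/fl mice had 154.7, 91.8 and 156.1 CPM with PBS and 307.5, 240.7 and 371.3 CPM with CRE. Every CRE library lay above every PBS library. Slc7a11 rose with CRE by 1.33 on the log2 scale averaged over genotypes (SE 0.16, edgeR adjusted p = 0.00263) and by 1.48 in AhRfl/fl cells (SE 0.23, adjusted p = 0.0299), a call that was lost without any 1 of the 6 AhRfl/fl libraries (adjusted p of 0.0519 to 0.157). In Sftpc-Cre;AhRfl/fl cells the value was 1.19 (adjusted p = 0.0797), and with CRE and PBS libraries of the same number paired it was 1.21 (adjusted p = 0.00265). The interaction was -0.29 (SE 0.32, adjusted p = 1.0).

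Slc7a5, another light chain of Slc3a2, did not pass in these comparisons, and its values stand above. Slc6a14, a sodium-driven carrier of neutral and cationic amino acids, was named after its values were seen: it had the highest level of the carriers listed, at a mean of 291.2 FPKM (range 226.0 to 393.4), above Slc3a2 and Slc7a5. It did not pass the test (log2 fold change with CRE averaged over genotypes -0.27, SE 0.11, adjusted p = 0.36).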

How the data were processed

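AT2 cell libraries (stranded mRNA) were sequenced by the authors in 4 groups of 3, and conditions were taken from the sample labels. The authors aligned the reads with STAR 2.7.2b to GRCm38, named Partek and RefSeq for annotation, and took counts by Salmon. The deposited counts are whole numbers per gene, not normalized, and how they became whole is not stated. The deposited FPKM were made by the authors and hold 0.0001 where the count is 0, apart from at most 5 genes in a library. Symbols and positions came from GENCODE M21, which matched all 55450 genes.

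Counts were tested with edgeR 4.0.16 (R 4.3.3), with TMM factors, filterByExpr at a minimum count of 10 by group, a quasi-likelihood fit of 4 group means to 12 libraries and Benjamini-Hochberg adjustment over 20612 genes at 0.05. The interval of each fold change is 95%. CPM use TMM-adjusted library sizes. The script was tested on simulated data. Alternatives were DESeq2 1.42.0, limma 3.58.1 (limma-trend with a prior count of 2, also on log2(FPKM + 1)), other scalings, filters, pairings and left-out libraries. FPKM served to compare levels between genes.

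Replicate numbers were checked for pairing on 14543 genes. Deviations of CRE and PBS libraries with the same number correlated at 0.748, 0.418 and 0.645 in AhRfl/fl and at 0.605, 0.547 and 0.368 in Sftpc-Cre;AhRfl/fl cells, so the numbers pair them. Between genotypes the correlations were 0.438, 0.0866 and 0.133 with PBS and 0.427, 0.00281 and 0.0952 with CRE, so that 3 of 6 were 0.1 or less and the numbers were not taken as pairs there. The libraries numbered replicate 1 did correlate across genotypes.

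Members and gene lists were chosen with earlier results of these data known. Genes named beyond the members were those of a list that edgeR called, up to 4, or else the 2 of highest FPKM, genes that overlap a member, the 3 genes most like the member of highest FPKM, and others named as chosen after their values were seen.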

Additional observations from a re-analysis of the deposited data

How the results depend on the processing

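The count of members that passed was 0 in all 7 comparisons with edgeR, and it was 0 in 141 of 145 alternatives. The main edgeR fit, without pairs, called 0% to 1.10% of all genes. A count of 0 among 9 is near that background and is not a result about the members. The exceptions were all Afmid: DESeq2 called 1 member between genotypes with CRE (174 genes in all), and the rule of the study called 1 member for CRE in Sftpc-Cre;AhRfl/fl cells, 1 between genotypes with CRE and 1 for the interaction. Leaving out each library in turn gave 0 in every comparison. CRE and PBS libraries of a genotype were paired by their number, and with the replicate block, within genotype or over all 12 libraries, the count of members was 0 in every comparison and no call on a member changed. Pairing within genotype raised the genes called for CRE from 48 to 748 in AhRfl/fl and from 54 to 439 in Sftpc-Cre;AhRfl/fl cells. Averaged over genotypes the genes called for CRE rose from 226 to 1358, so the fit without pairs missed many of them. In the genotype test averaged over treatments, the main fit took paired libraries as separate, so its p-values can be too small. Between genotypes the block (0 members) raised the count of all genes called from 31 to 71 with PBS and from 35 to 55 with CRE. Values near 0 changed sign. For CRE in Sftpc-Cre;AhRfl/fl cells Slc7a5 was 0.017 in log2, -0.008 on log2(FPKM + 1), -0.007 with library size alone and -0.005 without replicate 1 of every group, and leaving out 1 library gave -0.059 to 0.091. Slc3a2 in that comparison was -0.021 without replicate 1 of every group and -0.054 to 0.176 without 1 library. Without 1 library, Slc7a5 ran from -0.111 to 0.037 for CRE in AhRfl/fl cells, from -0.020 to 0.154 for the interaction and from -0.061 to 0.027 for CRE averaged over genotypes. Slc3a2 ran from -0.093 to 0.150 between genotypes with CRE and from -0.110 to 0.006 for CRE averaged over genotypes, and Afmid from -0.360 to 0.257 between genotypes with PBS. All alternatives in the list were run. With 3 libraries a group and fewer than 300 counts for each enzyme in every library, the intervals of enzymes other than Afmid were wide. Some were wide in 1 direction only. Between genotypes they were 0.149 to 1.44 times for Ido2 averaged over treatments and 0.00485 to 1.68 times for Ido1 with PBS.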
